A study of Homo sapiens with 14 samples.

Results

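The genes described are the 38 human genes for aminoacyl-tRNA synthetases and for the scaffold proteins of the multisynthetase complex, of 19821 protein-coding genes on chromosomes 1 to 22 and X. They were chosen by name and comprised 7 cytosolic enzymes of the complex, 12 other cytosolic enzymes, 16 mitochondrial enzymes and 3 scaffolds. The data were chromatin immunoprecipitation sequencing (ChIP-seq) of T47D cells, an established breast cancer line that is positive for the oestrogen receptor and the progesterone receptor (PR). The cells had received progesterone (P4), or ethanol as the vehicle, for 1 h before precipitation with an antibody to PR or to POLR3A, which is the largest RNA polymerase III subunit. Each of the 4 combinations of antibody and treatment had 3 replicate libraries, and each treatment had 1 pooled input library, 14 libraries in all. The 3 libraries of a combination shared 1 list of bound regions, so no value below has a replicate error and no difference between lists could be tested.

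Aminoacyl-tRNA synthetases attach each amino acid to its matching tRNA, the step that gives the genetic code its meaning during translation. Cytosolic and mitochondrial translation use largely separate enzymes, both encoded in the nucleus, and several cytosolic enzymes sit together with the scaffold proteins in the multisynthetase complex. The synthetase genes code for proteins and are transcribed by RNA polymerase II, whereas the tRNAs that the enzymes charge are transcribed by RNA polymerase III, the enzyme that contains POLR3A. PR is a steroid receptor that binds DNA when progesterone is present.

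The PR lists gave 38933 (vehicle) and 111515 (P4) regions on those chromosomes and the POLR3A lists 29161 (vehicle) and 47904 (P4). A gene was counted when a region reached its span or the 5 kb on either side. Each region carries a fold enrichment and a −log10 q-value, which are the authors' own values and rank regions within 1 list. Read counts were not used here, the depth of the libraries is unknown, and the P4 lists were longer than the vehicle lists for both antibodies. A gene gained in a longer list and a gene gained through more binding therefore cannot be told apart. Lists of regions hold no expression, so the cell type could not be checked against its markers. The 9 luminal and PR target genes examined (ESR1, PGR, GATA3, FOXA1, KRT8, KRT18, FKBP5, GREB1 and ZBTB16) all had a PR region in both PR lists. Of all protein-coding genes, 50.7% (vehicle) and 76.2% (P4) had one. A POLR3A region lay at 8 of the 9 under vehicle and at 9 under P4, against 48.9% and 54.4% of all genes.

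Regions of both factors reached the stretch from 250 bases before to 50 bases after the start in 17 of the 33 genes whose start was known, with the treatments pooled, in 8 genes within the vehicle lists and in 12 within the P4 lists. No share over all protein-coding genes is at hand for these counts. The sequences of 6 of the 17 stretches are shown because a region of each factor reached them; they are those with the highest PR values under P4 and come from RefSeq on GRCh38.p14. At HARS1 the PR region was of the P4 list and the POLR3A region of the vehicle list, and a region can reach a stretch with its summit outside it, as at HARS1 and WARS1. Each is written 5′ to 3′ on the strand of the gene, and capitals mark matches on either strand to the motifs AGAACA (a core bound by steroid receptors), ACANNNTGT (the spaced core of a full receptor element), CACGTG (the E-box bound by MYC), CCGGAAG (bound by ETS factors), TGATGCAA (the amino acid response element) and GGTTCGA (the core of the B box inside tRNA genes). AGAACA and ACANNNTGT can share bases.
TARS1, chr5:33440446-33440745, plus strand: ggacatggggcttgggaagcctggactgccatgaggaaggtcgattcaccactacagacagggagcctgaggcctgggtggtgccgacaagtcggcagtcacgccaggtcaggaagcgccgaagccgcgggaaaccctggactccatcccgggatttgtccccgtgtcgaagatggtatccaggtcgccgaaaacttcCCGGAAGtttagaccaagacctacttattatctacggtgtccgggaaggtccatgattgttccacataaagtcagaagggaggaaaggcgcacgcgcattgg
HARS1, chr5:140691321-140691620, minus strand: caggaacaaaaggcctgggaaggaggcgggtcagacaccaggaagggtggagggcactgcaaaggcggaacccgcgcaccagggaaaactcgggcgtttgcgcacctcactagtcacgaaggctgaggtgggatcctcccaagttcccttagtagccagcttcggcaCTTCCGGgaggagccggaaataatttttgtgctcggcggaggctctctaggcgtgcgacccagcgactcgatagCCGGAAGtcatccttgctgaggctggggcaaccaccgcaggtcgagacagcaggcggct
WARS1, chr14:100376278-100376577, minus strand: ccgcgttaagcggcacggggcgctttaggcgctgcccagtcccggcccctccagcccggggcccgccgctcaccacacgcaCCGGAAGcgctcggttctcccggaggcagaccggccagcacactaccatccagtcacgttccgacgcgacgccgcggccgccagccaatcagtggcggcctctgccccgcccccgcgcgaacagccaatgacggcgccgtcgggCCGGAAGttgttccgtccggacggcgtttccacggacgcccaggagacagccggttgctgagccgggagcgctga
AIMP1, chr4:106316300-106316599, plus strand: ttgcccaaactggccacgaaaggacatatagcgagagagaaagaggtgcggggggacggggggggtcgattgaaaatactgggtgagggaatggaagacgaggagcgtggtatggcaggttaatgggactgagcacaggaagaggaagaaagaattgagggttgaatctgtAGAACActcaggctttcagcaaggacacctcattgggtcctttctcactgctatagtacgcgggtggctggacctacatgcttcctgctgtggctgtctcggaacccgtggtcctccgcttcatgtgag
GARS1, chr7:30594628-30594927, plus strand: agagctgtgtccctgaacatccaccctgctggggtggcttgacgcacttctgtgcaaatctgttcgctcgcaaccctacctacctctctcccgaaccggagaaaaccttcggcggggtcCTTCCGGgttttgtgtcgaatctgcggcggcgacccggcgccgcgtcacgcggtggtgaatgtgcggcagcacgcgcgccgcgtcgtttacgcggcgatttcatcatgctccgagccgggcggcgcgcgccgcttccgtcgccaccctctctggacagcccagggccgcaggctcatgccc
CARS2, chr13:110706466-110706765, minus strand: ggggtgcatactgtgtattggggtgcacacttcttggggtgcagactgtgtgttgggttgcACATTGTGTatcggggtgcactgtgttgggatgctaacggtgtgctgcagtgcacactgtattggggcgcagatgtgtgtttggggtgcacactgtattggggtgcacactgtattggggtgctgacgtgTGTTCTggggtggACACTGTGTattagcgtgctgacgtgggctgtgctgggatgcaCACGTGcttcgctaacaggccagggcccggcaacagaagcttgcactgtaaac
The first 3 genes and GARS1 make cytosolic enzymes for threonine, histidine, tryptophan and glycine, AIMP1 is a scaffold, and CARS2 makes the mitochondrial enzyme for cysteine. TARS1 and GARS1 carried 1 CCGGAAG match each in the stretch shown, and HARS1 and WARS1 carried 2 each. CARS2 carried 2 ACANNNTGT matches, 1 AGAACA match and 1 CACGTG match, and AIMP1 carried 1 AGAACA match. None of the 6 held GGTTCGA.

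With every listed region counted, the share of synthetase genes with a region was above that of all protein-coding genes for both factors. A PR region lay at 29 of the 38 genes under vehicle, 76.3%, against 50.7% of all protein-coding genes. Under P4 a PR region lay at 36 of 38, 94.7% against 76.2%. POLR3A regions lay at 28 of 38 under vehicle, 73.7% against 48.9%, and at 30 of 38 under P4, 78.9% against 54.4%. PR and POLR3A were both present at 25 genes under vehicle, 65.8% against 36.3%, and at 30 genes under P4, 78.9% against 52.1%. All 4 lists had a region at 24 genes, 63.2% against 32.5% of all genes. No list had a region at QARS1, the cytosolic glutamine enzyme, or at MARS2, the mitochondrial methionine enzyme, which is 5.26% of the genes against 19.7% of all protein-coding genes. Their spans were 8.826 kb and 3.027 kb, and whether length bears on the absence of regions was not tested. The order did not hold for strong regions in every list. With a −log10 q of at least 10, PR under vehicle lay at 18.4% of synthetase genes against 22.3% of all genes and POLR3A under vehicle at 2.63% against 3.99%, and with at least 5, PR under vehicle lay at 34.2% against 33.9%. These shares describe the lists and were not tested.

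**Figure D1:**
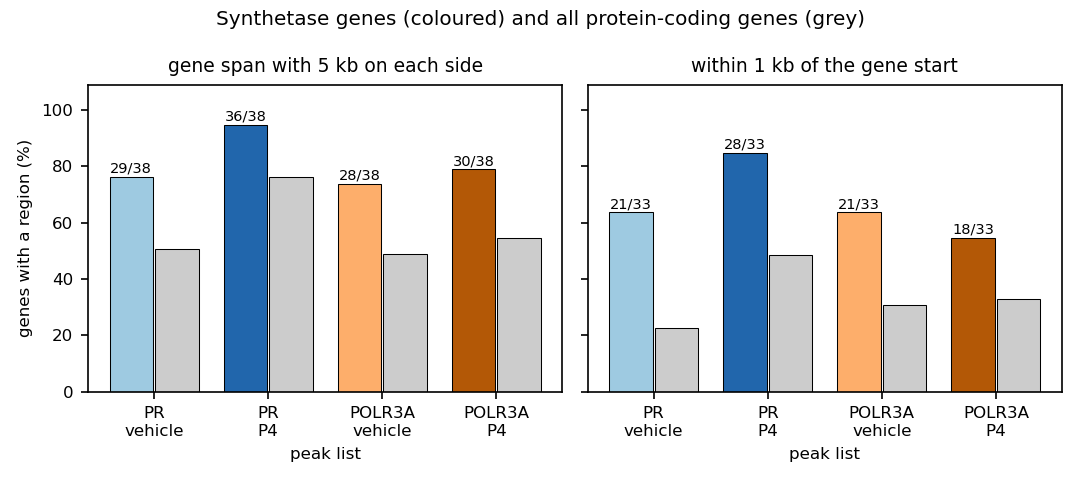
Share of genes with a region in each of the 4 peak lists, in percent, for the synthetase and scaffold genes (coloured bars, with the count above) and all protein-coding genes (grey bars). The left panel counts the span of the gene and 5 kb beyond either end (38 genes), the right panel 1 kb on each side of the gene start (33 genes with a known start), and the coloured bar is above the grey bar in all 8 pairs when every listed region is counted.

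The share of synthetase genes was above that of all genes in each list within each of 3 classes of gene length. The spans of the 38 genes had a median of 31.01 kb, from 3.027 kb for MARS2 to 521.65 kb for FARS2, against a median of 24.482 kb over all protein-coding genes. Among genes under 20 kb, PR regions under vehicle lay at 10 of 13 synthetase genes, 76.9% against 39.9% of all genes of that length, and POLR3A regions under vehicle at 10 of 13, 76.9% against 43.2%. Among genes from 20 to 60 kb the shares were 12 of 15 for PR under vehicle, 80.0% against 53.9%, and 10 of 15 for POLR3A under vehicle, 66.7% against 53.1%. Among genes over 60 kb, PR under vehicle lay at 7 of 10, 70.0% against 65.3%, the smallest of these differences, while POLR3A under vehicle lay at 8 of 10, 80.0% against 53.7%. Per megabase of window, synthetase genes held 24.8 PR regions in the vehicle list against 16.6 over all genes and 62.7 in the P4 list against 51.7. For POLR3A the densities were 23.2 against 13.3 (vehicle) and 34.6 against 22.1 (P4). The windows also took in other genes: 24 of the 38 held part of another protein-coding gene, and none held a tRNA gene.

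**Figure D2:**
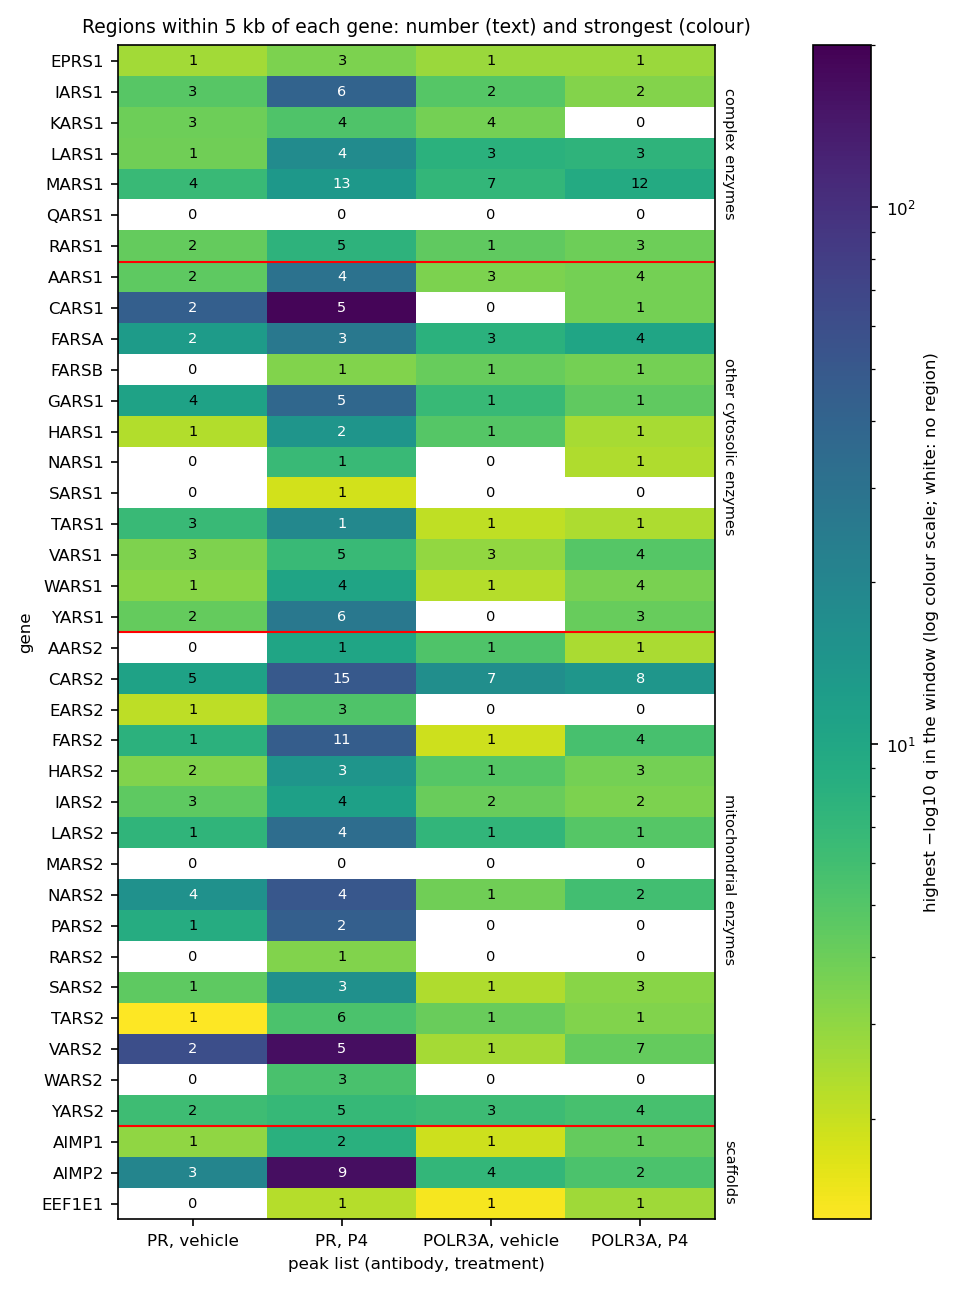
Number of regions (text) and highest −log10 q (colour, log scale) within 5 kb of each of the 38 genes in the 4 peak lists. Rows are genes in 4 groups, from complex enzymes at the top to scaffolds at the bottom, and white cells are lists without a region. CARS1, VARS2 and AIMP2 carry the 3 darkest cells, all under PR with P4, and the rows of QARS1 and MARS2 are white throughout.

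Of the 7 enzymes of the multisynthetase complex, 6 had a PR region under each treatment, 6 had a POLR3A region under vehicle and 5 under P4. For PR this was 85.7% under each treatment, against 50.7% (vehicle) and 76.2% (P4) of all protein-coding genes. For POLR3A it was 85.7% against 48.9% under vehicle and 71.4% against 54.4% under P4. QARS1 was the exception in every list. KARS1, the lysine enzyme that serves both the cytosol and mitochondria, had 3 PR regions in the vehicle list and 4 in the P4 list. It was the 1 gene of the 38 with POLR3A regions under vehicle alone, 2.63% of the genes against 8.07% of all protein-coding genes. Its 4 POLR3A regions under vehicle reached a −log10 q of 3.74, and 2 of them lay within 1 kb of its start, which it nearly shares with TERF2IP, a telomere protein gene.

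MARS1, the cytosolic methionine enzyme, had 7 POLR3A regions under vehicle, as many as CARS2 and the most of the 38 genes, and 12 under P4, the most in that list. Its strongest POLR3A region under vehicle had a −log10 q of 7.17 (4.51-fold) and a summit 203 bp past the start. Under P4 the strongest had a −log10 q of 9.20 (5.14-fold) and lay 6085 bp into the gene. DDIT3, the stress-response transcription factor CHOP, and MBD6 lie past its far end, and 3 of the 7 and 4 of the 12 POLR3A regions lay within 1 kb of the start of a neighbouring coding gene, against 2 and 2 at the start of MARS1 itself.

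LARS1, the leucine enzyme that also senses leucine for mTORC1, had its strongest POLR3A regions with −log10 q values of 7.97 (vehicle) and 7.60 (P4). Both lay at the upper end of the gene's span on chromosome 5, at chr5:146182365-146182653 under vehicle and chr5:146182227-146182605 under P4. A PR region stood at the same place, chr5:146182362-146182555 with a −log10 q of 3.89 under vehicle and chr5:146182080-146182583 with 17.5 under P4. These 4 regions all overlapped one another.

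IARS1, the isoleucine enzyme, had its strongest PR region 2541 bp upstream of its start under P4, with a −log10 q of 39.9 (11.5-fold), and the region at that place under vehicle had 4.76 (4.05-fold). RARS1, the arginine enzyme, had regions at its start in all 4 lists, with a highest −log10 q in its window of 4.28 and 7.69 for PR under vehicle and P4 and of 4.46 and 3.91 for POLR3A. EPRS1, which joins glutamate and proline in 1 protein, also had all 4 at its start, each low, between 2.62 and 3.54.

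All 12 other cytosolic enzymes had a PR region under P4, where 76.2% of all protein-coding genes did. Under vehicle 9 of the 12 did, 75% against 50.7%. POLR3A regions lay at 8 of the 12 under vehicle, 66.7% against 48.9%, and at 11 under P4, 91.7% against 54.4%. CARS1, the cysteine enzyme, carried the strongest PR region of all 38 genes. This region, chr11:3000302-3001064 under P4, spanned the 3′ end of the gene, with a fold enrichment of 32.9 and a −log10 q of 185.3. Its summit lay 40310 bp from the nearest start, an internal one, as the whole gene spans 56.495 kb. At the same place the PR list under vehicle had a region of 12.9-fold and a −log10 q of 43.3. A weak POLR3A region, with a −log10 q of 3.72, lay inside it under P4, and CARS1 had no POLR3A region under vehicle.

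AARS1, the alanine enzyme, had the strongest PR region at a gene start in the set, at chr16:70288246-70289115 under P4, 601 bp into the gene, with a −log10 q of 29.8 (9.65-fold). Under vehicle its PR region there had 1.61 (2.43-fold), and the lowest value of any region in that list was 1.31. GARS1, the glycine enzyme, had PR regions 21508 bp and 22675 bp into the gene under P4, with −log10 q values of 37.5 and 29.6. Those regions had 3.69 and 10.9 under vehicle. At its start GARS1 had a PR region of 8.90 under vehicle and 7.65 under P4, and POLR3A regions of 6.70 and 4.45.

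FARSA makes the alpha subunit of the phenylalanine enzyme and FARSB the beta subunit. FARSA had regions at its start in all 4 lists, and its POLR3A region under vehicle, 113 bp upstream of the start, had a −log10 q of 8.05 (5.58-fold), the second highest among the strongest regions of each gene in that list. The highest POLR3A value in its window under P4, 10.3, and the highest PR values, 12.6 under vehicle and 26.6 under P4, all lay at the start of the neighbouring gene CALR, the chaperone calreticulin. FARSB had POLR3A regions 108 bp and 88 bp past its start, with 4.19 under vehicle and 3.72 under P4, and a PR region under P4 only, 20241 bp into the gene.

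HARS1 and HARS2, the cytosolic and mitochondrial histidine enzymes, start head to head with their spans 84 bp apart, so the regions around the shared start were counted for both, while others lay in the window of 1 of them alone. The shared start held a PR region under P4, chr5:140691333-140691948, with a −log10 q of 14.5 (6.17-fold), and a POLR3A region under vehicle inside it, chr5:140691605-140691843, with 4.89. TARS1 had a PR region over its start under P4, chr5:33440200-33441239, with a −log10 q of 18.9 (6.90-fold). Under vehicle it was covered by 2 separate PR regions, with 6.57 and 4.43. WARS1 had PR regions of 3.19 under vehicle and 10.5 under P4 upstream of its start and POLR3A regions of 2.27 and 3.40 there. VARS1, the valine enzyme, had between 3 and 5 regions in every list, with no −log10 q above 6.59. SARS1, the serine enzyme, had 1 PR region, under P4, 3921 bp upstream with a −log10 q of 1.84, and nothing in the other lists.

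Among the 16 mitochondrial enzymes, PR regions lay at 12 under vehicle and 15 under P4, and POLR3A regions at 11 under each treatment. For PR this was 75% against 50.7% of all protein-coding genes under vehicle and 93.8% against 76.2% under P4. For POLR3A it was 68.8%, against 48.9% (vehicle) and 54.4% (P4). CARS2 had the most PR regions of the 38 genes, 5 under vehicle and 15 under P4, and the strongest POLR3A regions. The highest POLR3A values in its window, 16.5 (7.97-fold) under vehicle and 14.1 (6.28-fold) under P4, lay at the start of the neighbouring gene ING1, a chromatin reader. At its own start, shown above, the POLR3A regions had a −log10 q of 11.6 (6.62-fold) under vehicle and 12.1 (6.28-fold) under P4, with summits 15 bp and 13 bp upstream, the highest at the start of any of these genes. The PR regions there had 5.18 and 6.65, and the strongest PR region under P4, 49.4, lay 62078 bp into the gene.

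VARS2, the mitochondrial valine enzyme, had the second strongest PR region, chr6:30926648-30927317 under P4, just beyond the end of its span, with a fold enrichment of 30.4 and a −log10 q of 166.1. The vehicle list had 13.4-fold and 60.1 there. Its POLR3A regions, 1 under vehicle and 7 under P4, stayed between 1.53 and 4.31 and none overlapped it. NARS2, the asparagine enzyme, had PR regions of 15.6 under vehicle and 50.7 under P4 about 104852 bp into the gene under P4. In FARS2, the longest gene, 11 PR regions under P4 and 1 under vehicle were spread over the span and flanks. The strongest lay 15288 bp upstream of the nearest known start with 45.5, and none lay at a start. PARS2, the proline enzyme, had a PR region 1414 bp upstream with 8.79 under vehicle and 43.4 under P4, and LARS2 had 1 lying 150213 bp into the gene (summit under P4) with 7.35 and 33.

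POLR3A was absent from both lists at 5 of the 16 mitochondrial genes: PARS2, RARS2, WARS2, EARS2 and MARS2. LARS2 had a POLR3A region at its start under vehicle, 56 bp from it, with a −log10 q of 7.21 (5.32-fold), whereas under P4 its 1 POLR3A region, of 4.95, lay 38271 bp into the gene. YARS2, TARS2 and SARS2 had regions at the start in all 4 lists, with POLR3A values there of up to 6.35, 4.12 and 2.66. The PR region at the TARS2 start under vehicle had 1.31, the lowest value of that list. Upstream of IARS2 the strongest POLR3A regions had 4.07 under vehicle, 4342 bp from its start, and 3.53 under P4, 3526 bp from it. The P4 region that overlapped the vehicle one had 3.49.

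The scaffold gene AIMP2 carried the third of the very strong PR regions, chr7:6015755-6016214 under P4, 6391 bp into the gene, with a fold enrichment of 20.7 and a −log10 q of 165.5, against 6.86-fold and 20.2 under vehicle. The highest POLR3A values, 7.14 (vehicle) and 5.45 (P4), were at its start, which lies beside that of PMS2, a mismatch repair gene. The other 3 POLR3A regions under vehicle and the other 1 under P4 lay from 1160 to 5307 bp away. AIMP1 had its regions at the start, next to the start of TBCK, with PR values of 2.98 and 8.14 and POLR3A values of 1.90 and 4.31 under vehicle and P4. EEF1E1, the third scaffold, had POLR3A regions of 1.38 and 2.66 within 250 bp of its start and a PR region of 2.30 under P4.

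**Figure D3:**
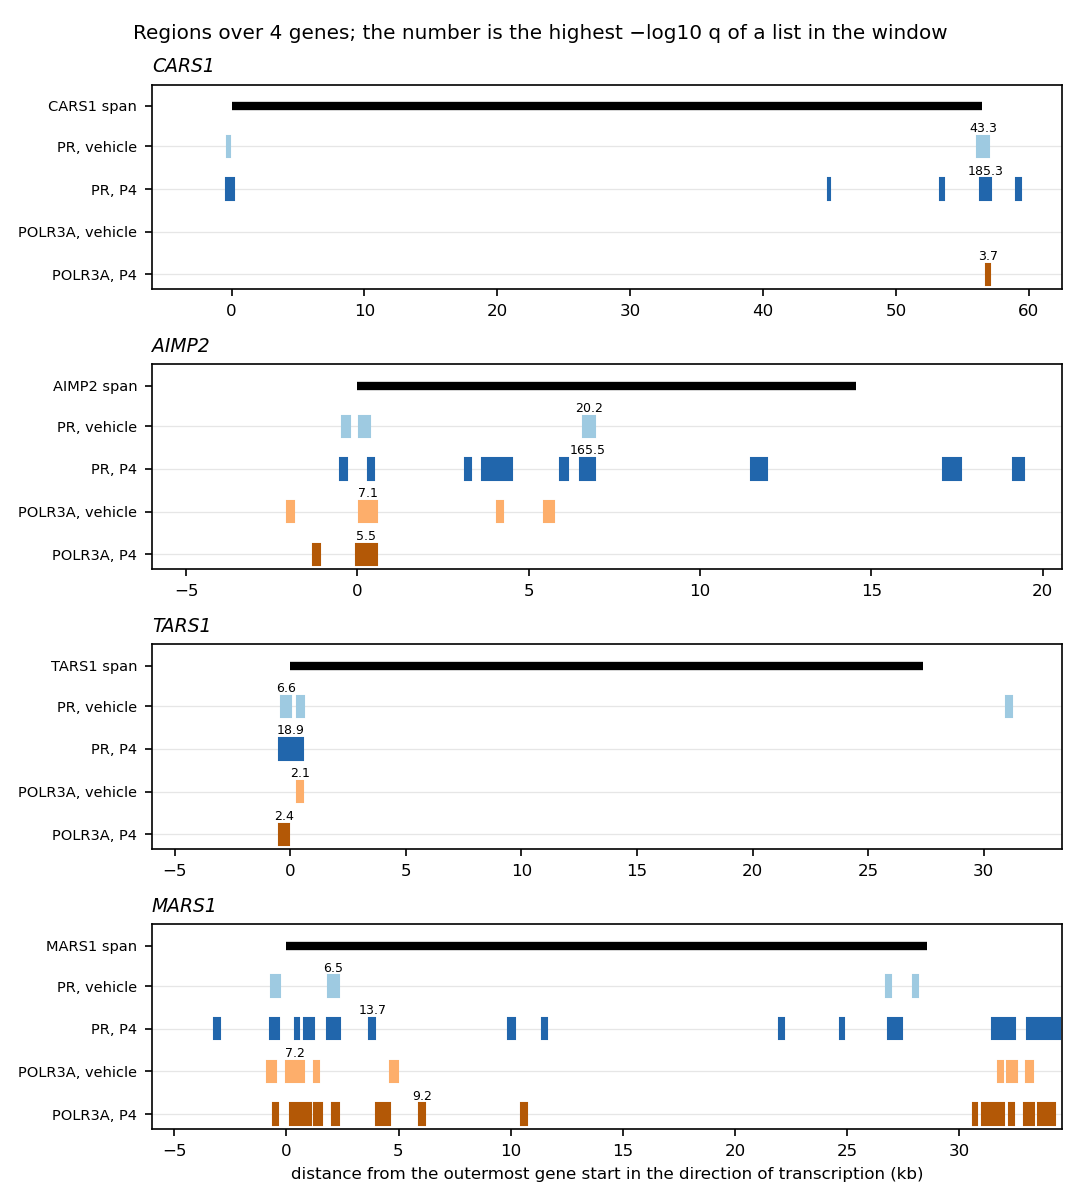
Regions of the 4 peak lists (coloured boxes, to scale) over CARS1, AIMP2, TARS1 and MARS1 with 6 kb on each side, by distance in kb from the outermost start in the direction of transcription. The black bar is the gene span and the number is the highest −log10 q of that list. The strongest PR regions of CARS1 (185.3) and AIMP2 (165.5) lie away from the start. At TARS1 each of the 4 lists has a region within 1 kb of a start, but the POLR3A regions under vehicle and under P4 do not overlap.

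Under P4, PR was listed at more synthetase genes than under vehicle, and at no gene was the change the other way. PR was present under P4 alone at 7 genes, 18.4% against 26.4% of all protein-coding genes, and under vehicle alone at 0, against 0.943%. The 7 were AARS2 with a −log10 q of 10.4 (4.56-fold), NARS1 with 6.57, WARS2 with 5.53, FARSB with 3.36, RARS2 with 3.36, EEF1E1 with 2.30 and SARS1 with 1.84. All 7 values were below 14.1, the median of the strongest PR region per gene under P4 over the 36 genes, and the median of all regions in that list was 4.87. POLR3A was present under P4 alone at 3 genes, CARS1, NARS1 and YARS1, 7.89% against 13.6% of all genes, with −log10 q values of 3.72, 2.38 and 4.23. NARS1, the cytosolic asparagine enzyme, was the 1 gene with no region under vehicle and regions of both factors under P4, and its 2 regions overlapped just upstream of the start, PR at chr18:57621887-57622262 and POLR3A at chr18:57621757-57622187.

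The counts changed with the length of the lists. When the PR list under P4 was shortened to its 38933 strongest regions, the length of the vehicle list, PR lay at 24 genes under P4 against 29 under vehicle, and the direction turned. Over all protein-coding genes the shares were then 52.4% and 50.7%. AARS2 was the 1 gene left under P4 alone, against 10.8% of all genes, and TARS2, EPRS1, VARS1, YARS2, EARS2 and KARS1 stood under vehicle alone, 6 of 38 against 9.08%. With both POLR3A lists at 29161 regions, POLR3A lay at 24 genes under P4 and 28 under vehicle, with shares of 43.5% and 48.9% over all genes. YARS1 and CARS1 then stood under P4 alone, 2 of 38 against 8.52% of all genes, and EPRS1, TARS1, HARS1, EEF1E1, AARS2 and KARS1 under vehicle alone, 6 of 38 against 13.9%.

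The starts of these genes were counted next. The sources used here gave a start for 33 of the 38 genes, all but YARS1, LARS1, VARS1, VARS2 and AARS2. A start was counted when any part of a region lay within 1 kb of it. The PR region at HARS2 under vehicle was counted in this way, with its summit 1021 bp upstream. A PR region lay within 1 kb of the start of 21 of the 33 under vehicle, 63.6% against 22.7% of 15812 protein-coding genes, and of 28 under P4, 84.8% against 48.4%. POLR3A lay at 21 starts under vehicle, 63.6% against 30.6%, and at 18 under P4, 54.5% against 32.8%. All 4 lists had a region within 1 kb of a start at 13 genes, 39.4% against 12% of all genes: TARS2, EPRS1, AIMP1, TARS1, RARS1, AIMP2, GARS1, YARS2, MARS1, CARS2, WARS1, FARSA and SARS2. These regions did not always overlap one another, as with POLR3A under vehicle and under P4 at TARS1. No list had a region at the starts of SARS1, MARS2, QARS1 and FARS2, 12.1% against 43.9%.

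At the starts, the PR count was higher and the POLR3A count lower in the P4 list than in the vehicle list. PR was at 7 starts under P4 alone (PARS2, WARS2, LARS2, EEF1E1, RARS2, NARS2 and NARS1), 21.2% against 27.3% of all genes, and at none under vehicle alone, against 1.68%. POLR3A was at 2 starts under P4 alone, IARS1 and NARS1, 6.06% against 11%. It was at 5 under vehicle alone, IARS2, LARS2, HARS1, HARS2 and KARS1, 15.2% against 8.82%, of which HARS1 and HARS2 share 1 region. The IARS2 region had a −log10 q of 1.306, close to the lowest value of that list, 1.304. Over all genes the start shares were 22.7% (vehicle) and 48.4% (P4) for PR and 30.6% and 32.8% for POLR3A. Among the 14 mitochondrial genes with a known start, PR went from 7 (50%) under vehicle to 12 (85.7%) under P4. POLR3A went from 8 (57.1%) to 5 (35.7%) at these genes. Among the 6 complex enzymes PR lay at 5 starts (83.3%) in both lists and POLR3A at 4 (66.7%) in both. Among the 10 other cytosolic enzymes PR lay at 7 (70%) and 8 (80%) starts and POLR3A at 6 (60%) and 6. All 3 scaffolds had POLR3A at the start in both lists. With 1 list per combination the spread of these counts is unknown.

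**Figure D4:**
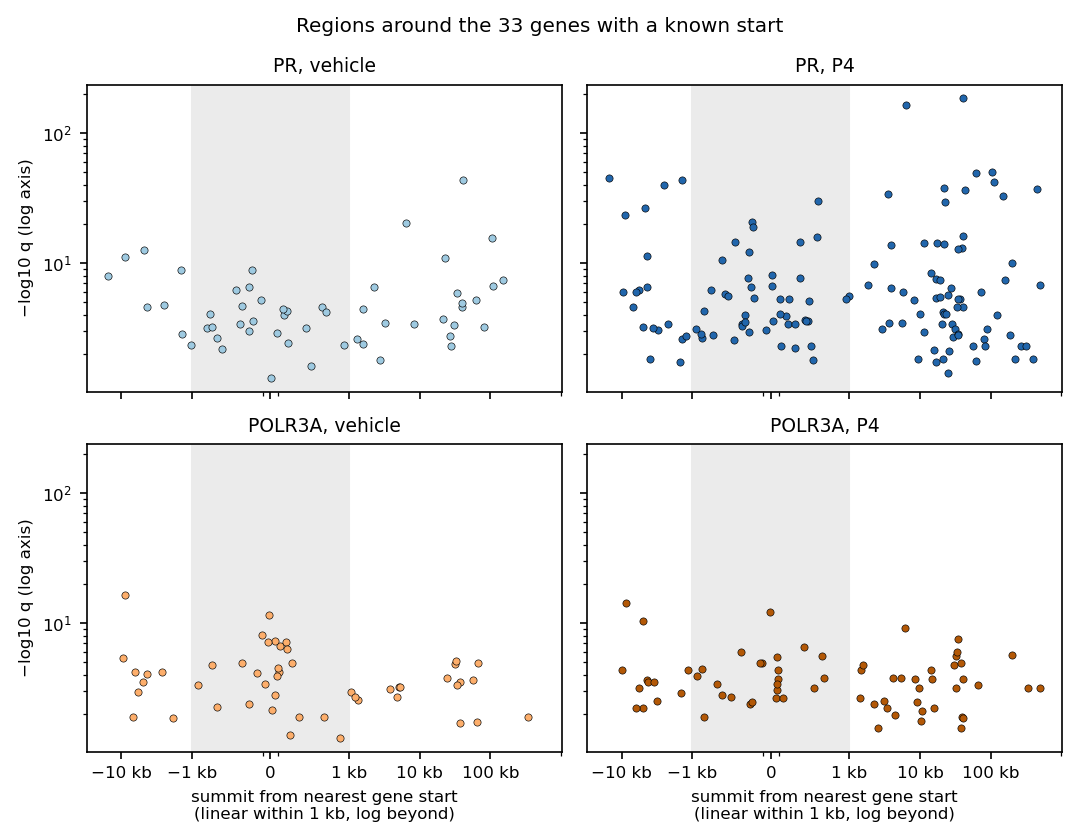
Distance of each region's summit from the nearest start of its gene (x axis, linear within 1 kb, log beyond) against its −log10 q (log y axis) for the 33 genes with a known start, 1 panel per peak list; the grey band is 1 kb on either side. The PR regions with the highest values, up to 185.3 under P4, lie outside the band, and those inside it reach 29.8.

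With the regions of all these genes pooled, the highest PR values lay away from the starts. Within single genes this often did not hold. Among genes with a PR region and a known start, the strongest had its summit within 1 kb of the start in 11 of 25 under vehicle. Under P4 it did so in 15 of 31, and no share over all protein-coding genes is at hand. Of the PR regions around these 33 genes, 24 of 53 under vehicle (45.3%) and 45 of 133 under P4 (33.8%) had their summit within 1 kb of the gene's own start. The highest −log10 q was 8.90 at a start against 43.3 elsewhere under vehicle, and 29.8 against 185.3 under P4, with medians of 3.50 against 4.76 and 4.05 against 5.25. POLR3A regions showed the reverse in their medians, 4.12 at the start against 3.26 elsewhere under vehicle and 3.72 against 3.40 under P4. At the start lay 23 of 49 POLR3A regions under vehicle (46.9%) and 23 of 67 under P4 (34.3%). A further 12 and 14 POLR3A regions lay within 1 kb of the start of another protein-coding gene, against 3 PR regions under vehicle and 13 under P4. Some starts served 2 genes: 7 of the 24 and 14 of the 45 PR regions, and 7 and 4 of the 23 POLR3A regions at a start under vehicle and P4, were also within 1 kb of another gene's start. Summits at starts had a median distance from the start of 373.5 bp and 366 bp for PR and of 169 bp and 262 bp for POLR3A, under vehicle and P4.

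A larger share of the POLR3A regions touched a PR region at the starts than farther away. Of the 23 POLR3A regions at starts under vehicle, 20 (87.0%) overlapped a PR region of the P4 list and 11 (47.8%) a PR region of the vehicle list. Farther from the start these shares were 13 of 26 (50%) and 3 of 26 (11.5%). Of the 23 POLR3A regions at starts under P4, 18 (78.3%) overlapped a PR region under P4, against 21 of 44 (47.7%) farther away. Within a treatment, PR and POLR3A regions touched at 14 of the 25 genes with both under vehicle and at 23 of the 30 with both under P4. For these counts, and for the shares at and away from starts, no value over all protein-coding genes is at hand. Whether they are particular to these genes is therefore unknown. Over all regions in the windows, 56.5% of the POLR3A regions under P4 overlapped a PR region under P4, against 50.5% of the whole POLR3A list, and 29.8% of those under vehicle overlapped a PR region under vehicle, against 32.3%. Seen from PR, 29.2% of the PR regions under P4 overlapped a POLR3A region under P4, against 20.9% of the whole PR list.

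The POLR3A regions at synthetase genes were weak beside those at tRNA genes, the known templates of RNA polymerase III. Of 429 tRNA genes, 353 had a POLR3A region reaching the gene or its 100 bp flanks under vehicle and 351 under P4, and the strongest region per tRNA gene had a median −log10 q of 353.9 and 354.2. The corresponding medians over the synthetase genes with a region were 4.16 under vehicle and 3.81 under P4, and no synthetase gene exceeded 16.5 or 14.1.

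Short motifs were counted in the 300-base stretches around the starts, of which RefSeq gave 45 for the 33 genes and 22132 for all genes. TGATGCAA, the element that ATF4 and C/EBP factors bind when amino acids are short, was in 6 of the 45, 13.3% against 0.678% of all, and all 6 genes were cytosolic enzymes. CCGGAAG was in 20 of the 45, at 17 genes, 44.4% against 12.8%. CACGTG was in 6 of the 45, 13.3% against 8.34%. The receptor core AGAACA was in 13.3% against 11.7%, ACANNNTGT in 2.22% (CARS2) against 3.96%, and GGTTCGA, the B box core, in none against 0.944%. A match is a run of letters and was not tested for binding.

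The 6 TGATGCAA matches are shown with 8 bases on either side, on the strand of the gene, with the match in capitals (TTGCATCA is the same element on the other strand).
AARS1, chr16:70289678-70289701, minus strand: tctcgcagTTGCATCAgccaagtt
CARS1, chr11:3057410-3057433, minus strand: ggcggcggTTGCATCAgattctag
IARS1, chr9:92293695-92293718, minus strand: tcagcgcgTTGCATCAcctccgtg
MARS1, chr12:57488056-57488079, plus strand: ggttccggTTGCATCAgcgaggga
NARS1, chr18:57621807-57621830, minus strand: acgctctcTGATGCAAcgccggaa
TARS1, chr5:33440959-33440982, plus strand: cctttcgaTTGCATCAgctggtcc
Under P4 all 6 genes had PR at the start (summit within 1 kb), and under vehicle all but NARS1 did. With any part of a region within 1 kb counted, PR was at the start of 84.8% (P4) and 63.6% (vehicle) of the synthetase genes. Over all protein-coding genes those shares were 48.4% and 22.7%. A link between the element and PR was not tested. The element itself was inside a PR region under P4 at 3 genes, CARS1 (−log10 q of 20.8), TARS1 (18.9) and IARS1 (12.2), and under vehicle at TARS1 (4.43). POLR3A regions covered it at MARS1 (7.17) under vehicle and at NARS1 (2.38) under P4. At TARS1 a POLR3A region under vehicle (2.12) overlapped part of the element. The TARS1 match belongs to a later start than the TARS1 stretch shown earlier.

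Other genes of tRNA use and of the amino acid response were counted the same way. Of 29 genes for tRNA maturation and export, 15 had a PR region under vehicle (51.7%) and 23 under P4 (79.3%), both near the shares over all protein-coding genes, while 25 (86.2%) and 22 (75.9%) had a POLR3A region. Over all protein-coding genes those 4 shares were 50.7%, 76.2%, 48.9% and 54.4%. Of 11 genes that deliver charged tRNA to the ribosome, 7 (63.6%) and 10 (90.9%) had PR and 9 (81.8%) and 8 (72.7%) had POLR3A under vehicle and P4. Of 19 genes of the amino acid response, 13 (68.4%) and 17 (89.5%) had PR and 17 (89.5%) and 15 (78.9%) had POLR3A. At gene starts the tRNA maturation and export genes had PR at 5 of 23 (21.7%) under vehicle and at 16 (69.6%) under P4, against 63.6% and 84.8% of the synthetase genes and 22.7% and 48.4% of all genes. POLR3A lay at 19 of these 23 starts (82.6%) under vehicle and at 13 (56.5%) under P4, against 30.6% and 32.8% of all genes. The delivery genes had PR at 5 of 9 starts (55.6%) under vehicle and 8 (88.9%) under P4, and POLR3A at 7 (77.8%) under each. The amino acid response genes had PR at 5 of 15 starts (33.3%) and 13 (86.7%), and POLR3A at 12 (80%) and 11 (73.3%). High shares at starts were thus not particular to the synthetase genes. The highest PR values under P4 in each of these lists were those of PUS7, a pseudouridine synthase gene (314.7), EEF1B2, an elongation factor gene (239.9), and TRIB3, an ATF4 target (158.1), so those of PUS7 and EEF1B2 were above the 185.3 of CARS1.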

How the data were processed

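PR and POLR3A ChIP-seq regions of T47D cells were read from the 4 peak lists that the authors deposited, 1 for each antibody and treatment. Per the submitters' processing notes, cutadapt, Bowtie2 and MACS2 were used with the build hg38; their versions, the pooling of replicates and the control are not given in the sources used here. Per the labels, each list stands for 3 replicate libraries. Of the deposited columns, the authors' ratio of enrichment (fold) and −log10 q-value describe each region, and the summit offset in bp places it. The score that the authors deposited was not used. Regions on chromosomes 1 to 22 and X were compared with 58419 of 59098 RefSeq genes of GRCh38.p14 (Python 3.11.15, pandas 2.3.3). A region counted when it overlapped a window by at least 1 bp. The overlap code was tested on simulated regions against bedtools 2.31.1. Gene starts came from the RefSeq promoter table. In counts of genes or starts, a region was at a start when any part of it lay within 1 kb. In counts and values of single regions, the summit had to lie within 1 kb of the nearest start. Distances in bp run from the summit to the nearest start of the gene.

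The genes and lists were chosen with earlier results of these data known, and no member, list or difference was tested. Genes named with values were up to 10 genes present in every list, by −log10 q of PR under P4, the 3 highest in each list, those with a region under 1 treatment alone, and those with none. The values of the remaining genes, given by group, fall outside this rule and were chosen after they were seen. The gene length classes, the places of regions, the tally of overlaps by place and the element sites were chosen after seeing the data. Tried as alternatives were other windows, −log10 q minimums of 5 and 10, lists of equal length, summits only and a reciprocal overlap of 50%. One gene of the tRNA maturation list is not analysed here. Columns of other samples numbered 0.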

Additional observations from a re-analysis of the deposited data

How the results depend on the processing

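The counts of genes with a region stayed within 1.5 times their value in 36 of the 50 combinations of count and alternative. At a minimum −log10 q of 5 the counts fell to 13 for PR under vehicle, 9 for POLR3A under vehicle, 8 for POLR3A under P4, 7 for both factors under vehicle and 8 for both under P4, and the shares of all genes for these were 33.9%, 18.2%, 18.8%, 10.6% and 17.1%. At a minimum of 10 they fell to 7 for PR under vehicle, 22 for PR under P4, 1 for POLR3A under vehicle, 2 for POLR3A under P4, 1 for both under vehicle and 2 for both under P4, and the shares of all genes were 22.3%, 45.6%, 3.99%, 3.52%, 1.55% and 2.55%. PR under vehicle, at 34.2% and 18.4% of the 38 genes, was then near the share over all genes at 5 and below it at 10, and POLR3A under vehicle, at 2.63%, was below it at 10. Within 1 kb of the start, where 33 genes were counted, POLR3A under P4 lay at 18, 54.5% against 32.8% of all genes. Both factors under P4 lay at 17, 51.5% against 28.4%. With a reciprocal overlap of 50%, regions of both factors touched at 7 genes under vehicle, with no share over all genes at hand. The fall at higher minimums follows from fewer regions in the lists; the cause of the other changes was not tested. No paired analysis was possible because the 3 replicates of each combination share 1 list. The depth of the libraries is unknown, so a gene without a region may lie below what the depth could show.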
